A study of Mus musculus with 8 samples.

Results

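The cyclins, the cyclin-dependent kinases (CDKs) and the CDK inhibitors were followed in the tibialis anterior, the fast muscle along the shin, of control mice and of mice given Porphyromonas gingivalis by mouth. Members were the genes whose array name has the form of a cyclin (Ccn), a kinase (Cdk) or an inhibitor (Cdkn) symbol, a rule that uses no measured value. They were 51 of the 37074 gene names on the array, read by 124 probes of 1 spot each, and all 51 names are current symbols in the RefSeq gene table. They comprise 11 cyclins of the cell cycle, 7 cyclins of transcription, 6 other cyclins, 4 CDKs of the cell cycle, 7 CDKs of transcription, 8 other CDKs, 3 CIP/KIP inhibitors, 4 INK4 inhibitors and the phosphatase gene Cdkn3.

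All mice were male C57BL/6J animals on a high-fat diet, sampled at 14 weeks of age, with 4 arrays per group. The P. gingivalis group had received this anaerobic bacterium of the gum pocket through a feeding needle, in 100 µL of saline, over 6 weeks from the age of 8 weeks. The sources used here do not state the bacterial dose, the hour of sampling or what the control mice were given, and group names in the protocol that no sample carries were not used. Each array was counted as 1 mouse, although the labels stop short of saying so. Were a mouse shared between arrays, p-values would reflect technical spread alone.

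Cyclins are regulatory subunits whose binding switches on a CDK. The D, E, A and B cyclins with their CDKs drive a dividing cell through its cycle, while cyclins C, H, K, L and T with theirs phosphorylate RNA polymerase II and the splicing machinery and so are needed in cells that never divide. CIP/KIP proteins bind and restrain cyclin-CDK complexes, INK4 proteins bind CDK4 and CDK6, and a muscle fibre leaves the cell cycle for good when it forms, with p21 (Cdkn1a) and p57 (Cdkn1c) among the inhibitors that rise at that step.

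The scanner files and the deposited value table disagree on the group of 4 of the 8 arrays. Each column of the value table had 1 clear partner among the scanner files (correlations of 0.833 to 0.88 over probes centred on their means, next best at most 0.0784), yet only 2 columns bore the label of their partner. Control 1, control 2, P. gingivalis 3 and P. gingivalis 4 have the same group in both sources. Values below follow the scanner files, and values under the other grouping stand beside the counts of members. All 8 arrays lay on 1 slide, the controls in slide row 1 and the P. gingivalis arrays in slide row 2, so a slide row effect and a group effect cannot be told apart. Before scaling, the 75th percentile of the processed intensity was 275 to 306 on control and 238 to 255 on P. gingivalis arrays, without overlap (two-sided exact permutation p = 0.0286, the smallest that 4 against 4 can give). Spots well above background made up 56.3% to 59.3% of an array and none was saturated, and arrays correlated at 0.9909 to 0.9949 over tested probes.

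No cyclin, CDK or inhibitor gene passed the test between the groups. Of the 51 members 43 were tested, or 84.3% against 57.5% of all gene names, each through its brightest probe among probes that passed the background mark on 4 or more of the 8 arrays. None had an adjusted p under 0.05 (limma with Benjamini-Hochberg adjustment over all probes, lowest 0.417), and none of the 21307 genes tested did (0%). At an unadjusted p under 0.05 limma named 1 member, Cdk15, which is 2.33% of the members against 10.9% of all genes tested. It was lower, where 5.95% of all genes tested were lower at that threshold, and no member was higher at it, where 4.97% of all genes were. No member had groups without overlap, while 6.79% of all genes tested did. Of the 43 members 29 were lower and 14 higher in P. gingivalis muscle, so 67.4% were lower against 54.6% of all genes tested.

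The differences were small. The median over members was −0.06 on the log2 scale, against −0.02 over all genes tested, and 20 of the 43 lay within 0.1 of 0. Only Ccna2, Ccnb2 and Cdk15 lay beyond 0.3, or 6.98% of the members against 11% of all genes tested. For 37 members the 95% confidence interval excluded a change of 1.5-fold in either direction, as it did for 80.3% of all genes tested. The members were also steady between mice of 1 group, with a median within-group SD of 0.123 against 0.139 over all genes tested.

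The counts moved with the background correction and with the group labels. Under normexp background correction 10 members passed an unadjusted p under 0.05, when 27.8% of all genes did, and the share of lower values was 58.1% of members and 40.1% of all genes. With the scanner values and the groups of the value table no member did so, when 3.75% of genes did. The median over members was then 0.0044, with 48.8% of members lower. On the 4 arrays that both sources give the same group (2 per group), Ccne1 was the 1 member at an unadjusted p under 0.05. This was 2.33% of members against 8.74% of all genes, and the median over members was −0.07. In every setting tried, no member had an adjusted p under 0.05, while under normexp 10 of all genes tested had one, Wee1 and Nr1d1 among them. Without the filter on dim probes 2 genes had one, and with an intensity trend in the variance 2 did. In the value table with its columns matched to the arrays 1 gene did.

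**Figure D1:**
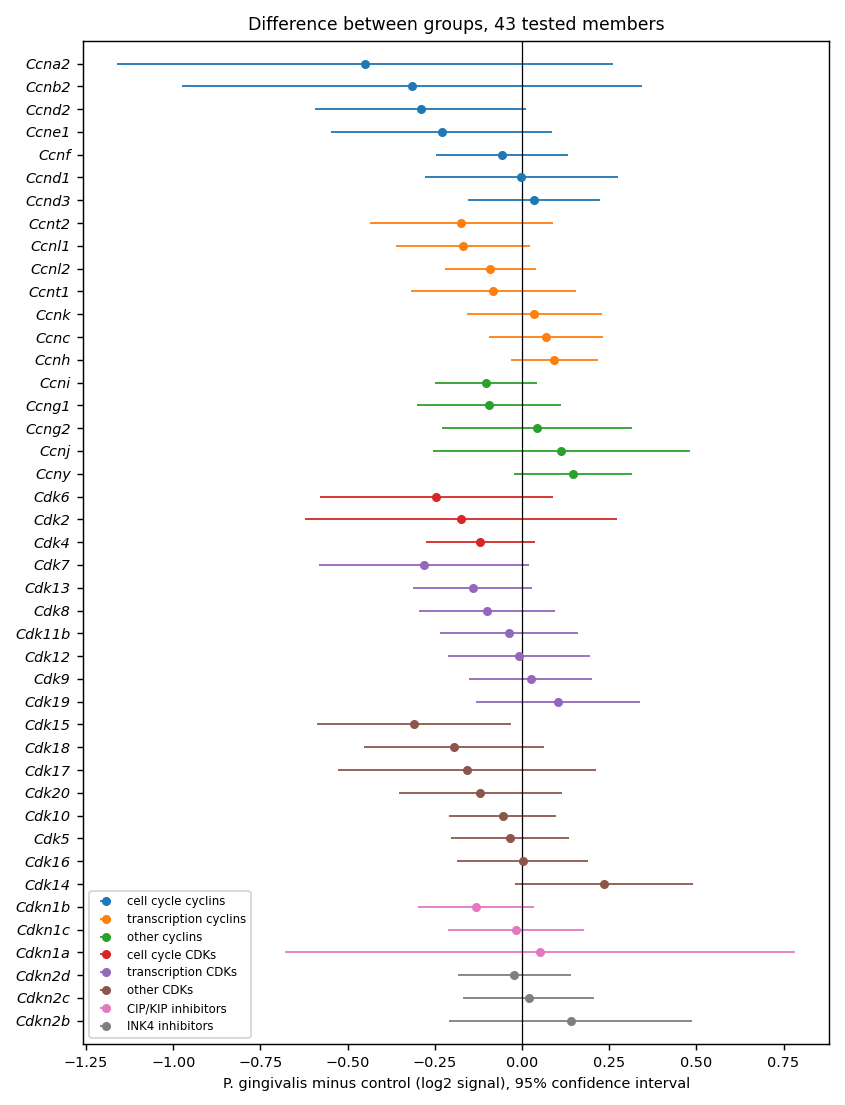
Difference between P. gingivalis and control muscle (log2 signal, horizontal axis) for the 43 tested members, grouped and coloured by role, with 95% confidence intervals from limma (n = 4 arrays per group). Every interval except that of Cdk15 includes 0, and the widest belong to Ccna2, Ccnb2 and Cdkn1a.

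Levels are given as the log2 processed intensity of a spot less the 75th percentile of its array, so that 0 is that percentile and a negative level is a dimmer spot. Arrays are given in the order 1 to 4 in each group. The brightness of a spot depends on its probe, so the level of 1 gene is not set against that of another.

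The remaining 8 members were too dim to test, among them 4 of the 11 cyclins of the cell cycle and 1 of its 4 kinases. Cdk1, the kinase that starts mitosis, Ccnb1, its main partner, and Cdkn3, a phosphatase that acts on CDKs, had no array well above background, the last 2 with 4 probes each. Ccnb3, a cyclin best known from meiosis, Ccne2, an E-type cyclin of S phase entry, and Cdkn2a, the gene of p16 and p19ARF, did not pass the background mark on any of the 8 arrays either. Ccna1, a cyclin of the germ line, and Ccno, a cyclin of multiciliated cells, reached that mark on 1 array each, in both cases a P. gingivalis array. These 8 members have no value in the counts above, apart from the setting without the filter on dim probes, where all 51 were tested. The Cdk1 probe, shown because it stands for the best known of the undetected members, lies at chr10:68805423-68807832 on the minus strand (mm9), and spans 2410 bases of the genome for its 60 bases, so it crosses at least 1 exon junction.
Cdk1 probe: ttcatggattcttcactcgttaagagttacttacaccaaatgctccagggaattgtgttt

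Genes of late cell cycle phases often carry a CHR element (cell cycle genes homology region), at which the DREAM complex keeps them silent in resting cells. Promoter windows of 250 bases before to 50 after a start, from RefSeq on GRCm38.p6, were given for 41 of the 51 members. A CHR (TTTGAA or TTCGAA, either strand) was present in those of 7 members, or 17.1%, against 21.7% of 27025 genes. The 7 were Ccnb2, Ccnf, Ccni, Cdk1, Cdk16, Cdkn2b and Cdkn3, of which Cdk1 and Cdkn3 are among the 8 that were not tested. Stretches of 60 bases upstream of the start are shown for the 2 undetected genes and for Ccnf, the cyclin F gene, which was measured, with the CHR in capitals (Cdkn3 carries it on the other strand).
Cdk1, chr10:69352913-69352972, minus strand: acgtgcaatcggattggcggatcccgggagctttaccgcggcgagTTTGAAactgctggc
Cdkn3, chr14:46760403-46760462, plus strand: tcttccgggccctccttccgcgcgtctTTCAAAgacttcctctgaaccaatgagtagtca
Ccnf, chr17:24251410-24251469, minus strand: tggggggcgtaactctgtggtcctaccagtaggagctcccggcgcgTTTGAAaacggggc

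The copy shown ends 9 bases before the start in Cdk1, 105 in Cdkn3 and 8 in Ccnf. Cdk1 and Ccnf hold a second copy, 65 and 124 bases before the start, and the copy nearest the start is the one shown. A CCAAT box (CCAAT, either strand) was in 53.7% of member promoters against 41.1% of all genes, an E2F site (TTTCCCGC, TTTCGCGC, TTTGCCGC or TTTGGCGC, either strand) in 7.32% against 2.61%, an E-box (CACGTG, the same on both strands) in 17.1% against 8.09%, and a FOXO site (TGTTTAC, either strand) in 4.88% against 4.05%. The E2F site was in the windows of Cdk1, Cdk2 and Cdkn2a. These matches describe letters in a window and were not related to binding.

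The 7 tested cyclins of the cell cycle had a median difference of −0.23, with 6 lower and 1 higher. The direction was not kept by normexp background correction, which gave 4 higher, 3 lower and a median of 0.06. Its offset shifts dim spots, so that change does not decide the direction. With the value table's groups, 2 were higher and 5 lower, with a median of −0.06. Ccnd2, cyclin D2, which partners CDK4 and CDK6 in early G1, was at 2.36, 2.34, 2.19 and 2.45 on control and at 2.21, 1.80, 2.33 and 1.84 on P. gingivalis arrays. Arrays 2 and 4 of the P. gingivalis group lay below every control, and arrays 1 and 3 lay within the control range. The difference was −0.29 ± 0.13 (SE; limma adjusted p = 0.454), and its 2 other probes stood at −0.21 and −0.08. The sister gene Ccnd3, cyclin D3, prominent in differentiating muscle cells, stood at 0.04, with its 2 other probes at 0.14 and 0.12. Ccnd1, the cyclin D1 gene that growth factors induce, had the same mean in both groups to 2 decimals (−1.28, SD 0.18 and 0.19, n = 4 each).

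Ccne1, cyclin E1, the activator of CDK2 at S phase entry, was at −1.35, −1.06, −1.70 and −1.59 on control and at −1.61, −1.80, −1.58 and −1.62 on P. gingivalis arrays. Controls 1 and 2 lay above all other arrays and controls 3 and 4 within the P. gingivalis range (−0.23 ± 0.14, SE; limma adjusted p = 0.556). Ccna2, cyclin A2 of S phase and mitosis, had the largest difference of all members in size. Its probe was well above background on 4 control but only 2 P. gingivalis arrays, so the size rests partly on dim spots. The controls alone met the filter of 4 arrays, which favours lower values, so Ccna2 adds no support to the counts of lower members. Levels were −4.70, −4.53, −4.66 and −4.86 on control and −4.27, −5.63, −4.86 and −5.79 on P. gingivalis arrays. P. gingivalis 1 was the brightest of all 8 and P. gingivalis 4 the dimmest, and the groups overlapped (−0.45 ± 0.31, SE; limma adjusted p = 0.606). Its second probe did not pass the background mark on an array. Ccnb2, cyclin B2 of mitosis, stood at −0.31 ± 0.29 (SE), with P. gingivalis 3 at −4.68 and the other 7 arrays between −3.79 and −3.22. Ccnf, a cyclin that serves as the substrate arm of a ubiquitin ligase, stood at −0.06 ± 0.08 (SE).

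All 3 tested kinases of the cell cycle were lower, with a median of −0.18. Under normexp background correction, whose offset shifts dim spots, the dim Cdk2 (0.12) and Cdk6 (0.07) were higher. These 2 were also higher under the groups of the value table (0.03 and 0.19). Cdk4, a partner of the D cyclins, was at 2.73, 2.70, 2.58 and 2.80 on control and at 2.66, 2.54, 2.54 and 2.59 on P. gingivalis arrays. Control 3 lay among the P. gingivalis values, and P. gingivalis 1 and 4 lay within the control range (−0.12 ± 0.07, SE; limma adjusted p = 0.536). Of its 3 other probes 2 stood at −0.11 and −0.15 and 1 at 0.02. Cdk6, the other D cyclin kinase, was at −3.35, −3.05, −3.20 and −2.85 on control and at −3.68, −3.25, −3.39 and −3.11 on P. gingivalis arrays, with overlap (−0.25 ± 0.15, SE; limma adjusted p = 0.554). Cdk2, the partner of cyclins E and A, stood at −0.18 ± 0.20 (SE). P. gingivalis 3 at −4.22 was its lowest array, with the other 7 between −3.66 and −3.29, and without that array the difference was 0.01.

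**Figure D2:**
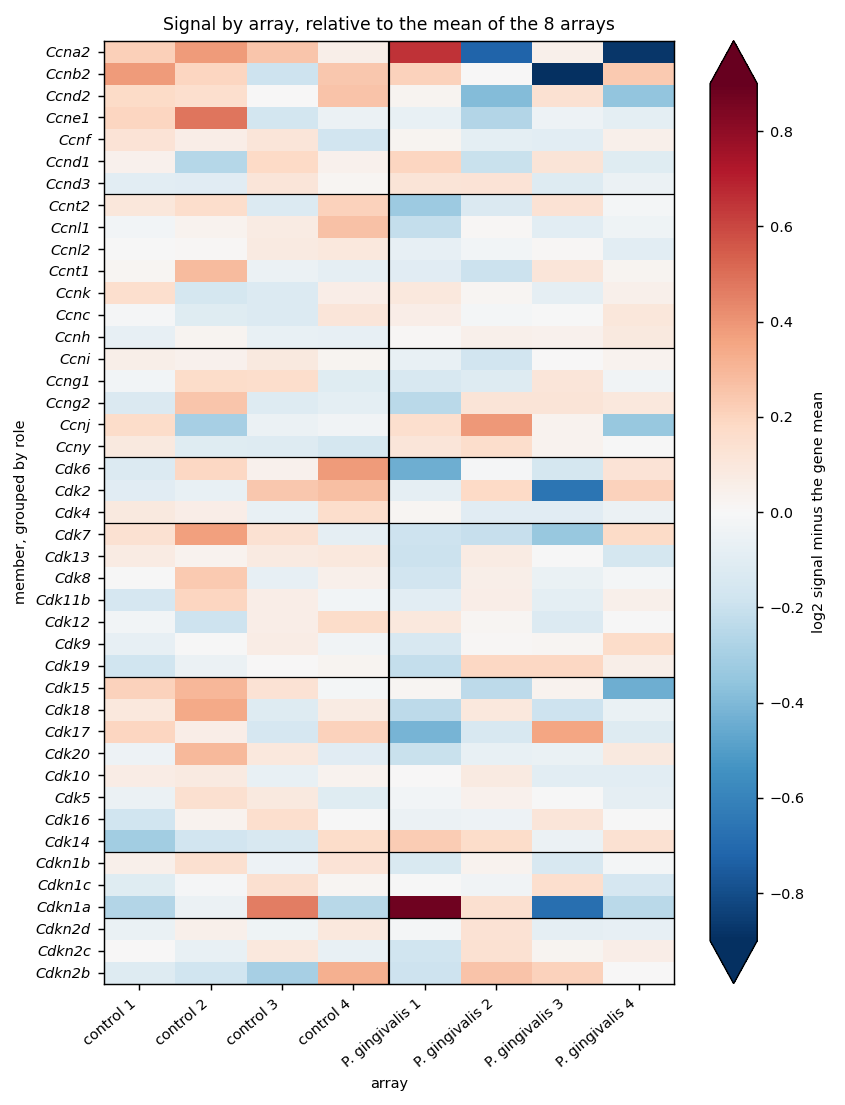
Signal of the 43 tested members (rows, grouped by role) on each of the 8 arrays (columns), as the log2 difference from the gene's mean over all arrays, with red above and blue below that mean and a black line between the groups. The strongest colours belong to single arrays of Ccna2, Ccnb2, Cdk2 and Cdkn1a, and no row splits fully at the line.

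The 7 cyclins of transcription were all tested, 4 lower and 3 higher, with a median of −0.08. With the value table's groups, 3 were lower and 4 higher, with a median of 0.04. Ccnl1, cyclin L1, a partner of CDK11 in pre-mRNA splicing, was lower on all 4 of its tested probes, at −0.17, −0.27, −0.22 and −0.06. Its brightest probe read −0.29, −0.24, −0.20 and −0.01 on control and −0.49, −0.25, −0.36 and −0.31 on P. gingivalis arrays. P. gingivalis 2 fell within the control range and the other 3 below it (−0.17 ± 0.08, SE; limma adjusted p = 0.485).

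A second Ccnl1 probe separated the groups. It read −1.36, −1.26, −1.18 and −1.42 on control and −1.58, −1.56, −1.51 and −1.67 on P. gingivalis arrays, so every P. gingivalis array was below every control. The difference was −0.27 ± 0.07 (SE; limma adjusted p = 0.324), the lowest p of any member probe. The two-sided exact permutation p was 0.0286, which groups without overlap always give here, so it only restates the separation. The difference shrank to −0.07 under normexp background correction and to −0.0034 under the groups of the value table. The 60-base probe spans 802 bases on the minus strand (chr3:65750823-65751624, mm9) and so crosses an exon junction.
Ccnl1 probe: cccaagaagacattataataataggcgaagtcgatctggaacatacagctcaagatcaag

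Ccnl2, cyclin L2, which shares that role, was at 2.27, 2.28, 2.35 and 2.36 on control and at 2.20, 2.24, 2.28 and 2.17 on P. gingivalis arrays, with P. gingivalis 3 reaching the control range (−0.09 ± 0.06, SE; limma adjusted p = 0.57). Of its 3 dimmer probes 2 stood at −0.16 and −0.15 and the dimmest at 0.13.

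The probes of Ccnh, cyclin H, which with CDK7 forms the CDK-activating kinase of TFIIH, did not all share 1 sign. Of its 4 tested probes 3 were higher, 1 of them at 0.07 ± 0.07 (SE) and not described further. The brightest was at 2.76, 2.86, 2.77 and 2.76 on control and at 2.85, 2.88, 2.87 and 2.92 on P. gingivalis arrays. Control 2 lay just above P. gingivalis 1, and the other 3 controls lay below all P. gingivalis arrays (0.09 ± 0.05, SE; limma adjusted p = 0.549). A second probe, annotated to the predicted transcript XM_006517324, read 1.04, 1.12, 0.97 and 1.07 on control and 1.21, 1.12, 1.19 and 1.31 on P. gingivalis arrays. Its groups did not overlap, but control 2 and P. gingivalis 2 were equal to 2 decimals (0.16 ± 0.07, SE; limma adjusted p = 0.432; exact permutation p = 0.0286). As for Ccnl1, that permutation p only restates the lack of overlap. A dimmer probe, annotated to the cDNA AK137849, read −1.88, −1.79, −1.89 and −2.0 on control and −2.31, −2.27, −2.08 and −1.99 on P. gingivalis arrays. There P. gingivalis 4 reached the control range and the difference was −0.27 ± 0.09 (SE; limma adjusted p = 0.371; exact permutation p = 0.0571). Both were higher with the value table's groups, at 0.01 and 0.07, and under normexp background correction they stood at 0.12 and −0.05. The last 2 are shown because they differ in sign within 1 gene under the main processing, at chr13:85337120-85342058 and chr13:85351909-85351968 on the plus strand of mm9, the dimmer one by its first 30 bases.
Ccnh XM_006517324 probe: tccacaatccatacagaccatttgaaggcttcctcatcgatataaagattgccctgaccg
Ccnh AK137849 probe: tcacatgactctgaaccacttctaaagtaa

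Of the other cyclins of transcription, Ccnt1 and Ccnt2, the cyclin T subunits of the elongation factor P-TEFb, stood at −0.08 and −0.17, the latter the lowest of the 7, and all 4 probes of the former and all 5 of the latter were lower. Ccnk, the partner of CDK12 and CDK13, stood at 0.04, and Ccnc, the cyclin of the Mediator kinase module, at 0.07 with all 4 of its probes higher.

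Of the 7 kinases of transcription 5 were lower, with a median of −0.04, against 3 lower under the groups of the value table. Cdk7, the catalytic partner of cyclin H, was at −1.45, −1.22, −1.45 and −1.67 on control and at −1.77, −1.80, −1.93 and −1.42 on P. gingivalis arrays. P. gingivalis 4 lay inside the control range and the other 3 lay below all controls (−0.28 ± 0.13, SE; limma adjusted p = 0.463). Cdk13, which phosphorylates the tail of RNA polymerase II, was at −0.45, −0.49, −0.44 and −0.43 on control and at −0.72, −0.45, −0.53 and −0.68 on P. gingivalis arrays. P. gingivalis 2 lay among the controls and the other 3 below them (−0.14 ± 0.07, SE; limma adjusted p = 0.508). Cdk8, the Mediator kinase, stood at −0.10 ± 0.09 (SE) on its brightest probe and at −0.23 ± 0.10 (SE; limma adjusted p = 0.442) on a dimmer one. Its close relative Cdk19 stood at 0.10, with all 4 probes higher. Cdk9, the kinase of P-TEFb, was at 0.02, Cdk12 at −0.0084 and Cdk11b, the splicing kinase, at −0.04.

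Among the other CDKs 6 of 8 were lower, with a median of −0.09, against 4 under the groups of the value table. Cdk15, a little studied kinase of the group of Cdk14, was the 1 member with an unadjusted p under 0.05. It read −2.34, −2.25, −2.41 and −2.56 on control and −2.52, −2.78, −2.51 and −2.98 on P. gingivalis arrays. Control 4 lay below P. gingivalis 1 and 3, so the groups overlapped. The difference was −0.31 ± 0.12 (SE, 95% confidence interval −0.59 to −0.03; limma adjusted p = 0.417; exact permutation p = 0.0857), or 0.806-fold. It was −0.04 under normexp background correction and −0.22 without P. gingivalis 4, where the unadjusted p was 0.079. Under the groups of the value table it was −0.14 on the scanner values and −0.10 in the value table itself. A second Cdk15 probe was well above background on 1 array and was not tested. The probe lies at chr1:59387782-59387841 on the plus strand (mm9), and its first 30 bases are shown as those of the lowest p among the genes.
Cdk15 probe: gaagcgctcgttcatgattatttcagtgtc

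Cdk14, a membrane-tethered kinase that cyclin Y activates in WNT signalling, had the largest positive difference. It was at −2.03, −1.89, −1.86 and −1.55 on control and at −1.49, −1.55, −1.77 and −1.58 on P. gingivalis arrays, with control 4 among the P. gingivalis values (0.23 ± 0.11, SE; limma adjusted p = 0.471). None of its 5 other probes passed the background mark on an array. Ccny, the cyclin Y gene, also stood higher on its brightest probe, at 2.91, 2.71, 2.71 and 2.66 on control and at 2.93, 2.98, 2.85 and 2.81 on P. gingivalis arrays. Control 1 lay inside the P. gingivalis range and the other 3 controls below it (0.15 ± 0.07, SE; limma adjusted p = 0.496). Its 2 other tested probes stood at 0.0044 and −0.04.

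Cdk18, a kinase of the PCTAIRE group, was at 0.89, 1.14, 0.68 and 0.87 on control and at 0.57, 0.89, 0.61 and 0.74 on P. gingivalis arrays, with overlap (−0.19 ± 0.11, SE; limma adjusted p = 0.543). Its relatives Cdk16 and Cdk17 stood at 0.0026 and −0.16. Cdk5, known for its work in neurons and at the neuromuscular junction, was at −0.04, Cdk10 at −0.06 and Cdk20 at −0.12. Of the cyclins without a fixed place in the cycle, Ccng1, a p53 target, stood at −0.09, Ccng2, a FOXO target, at 0.04, Ccni at −0.10 and Ccnj at 0.11. The brightest Ccni probe lay between 3.62 and 3.67 on control and between 3.42 and 3.62 on P. gingivalis arrays, and its 2 other probes stood at 0.03 and 0.06.

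**Figure D3:**
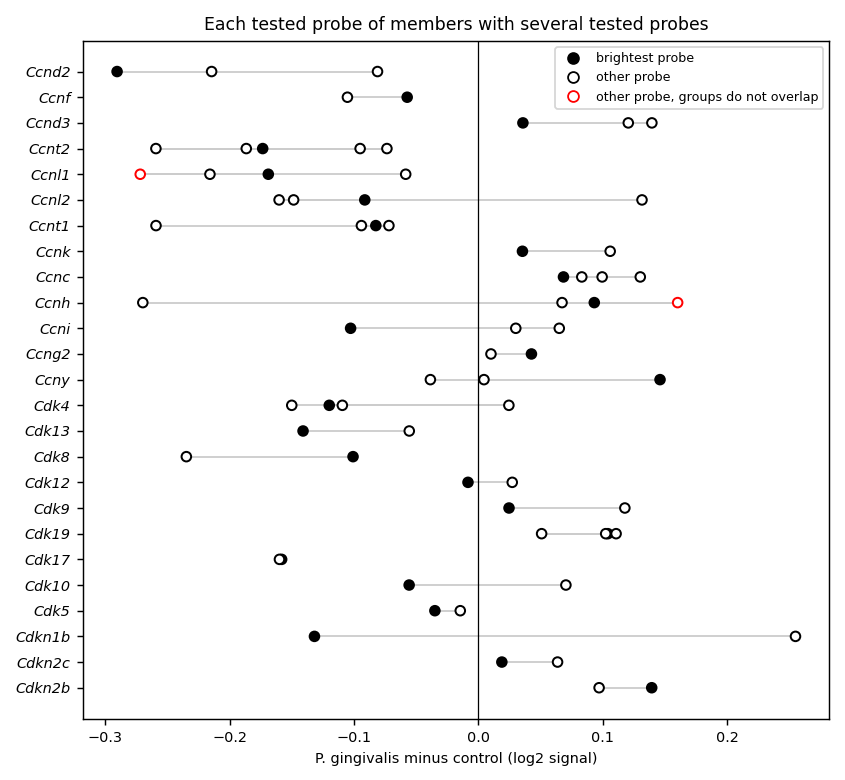
Difference between P. gingivalis and control muscle (log2 signal, horizontal axis) for each tested probe of the 25 members that have several, with the brightest probe filled, the others open and those whose groups do not overlap in red. The probes of 17 members share 1 sign and those of 8 fall on both sides of 0, with Ccnh and Cdkn1b the most spread.

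Counting probes instead of genes, 89 of the 124 were tested. An unadjusted p under 0.05 was found for 5 of them, or 5.62% against 11.2% of all 31649 probes tested. Of the 5, 1 was higher and 4 were lower, where 4.84% of all probes were higher and 6.36% lower at that threshold. Regardless of size 52 of the 89 were lower, or 58.4% against 54.3% of all probes. Groups did not overlap on 2 of the 89, or 2.25% against 6.67% of all probes. Those 5 were the 1 tested Cdk15 probe, 1 of Ccnl1, 1 of Cdk8 and 2 of Ccnh.

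The differences of the tested inhibitors on their brightest probes lay between −0.13 and 0.14, with a wide interval for Cdkn1a. Cdkn1b, which encodes p27, was at 3.02, 3.12, 2.93 and 3.10 on control and at 2.84, 3.01, 2.84 and 2.96 on P. gingivalis arrays. P. gingivalis 2 and 4 lay within the control range (−0.13 ± 0.07, SE; limma adjusted p = 0.52), and a much dimmer second probe stood at 0.25 ± 0.23 (SE). Cdkn1c, which encodes p57, had a mean of 3.46 ± 0.10 on control and of 3.44 ± 0.13 on P. gingivalis arrays (SD, n = 4 each).

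Cdkn1a, which encodes p21 and answers to p53 and to glucocorticoids, varied more between mice than any other inhibitor. It read 0.78, 1.0, 1.51 and 0.80 on control and 1.93, 1.2, 0.37 and 0.81 on P. gingivalis arrays. The highest and the lowest array were both of the P. gingivalis group, with an SD of 0.66 there and 0.34 in controls. The difference was 0.05 ± 0.32 (SE; limma adjusted p = 0.965), with an interval from 0.624-fold to 1.72-fold, so a change within those bounds is not excluded by these arrays.

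The INK4 genes were likewise close to 0 where measured. Cdkn2b, which encodes p15, was at −1.15, −1.22, −1.33 and −0.71 on control and at −1.22, −0.78, −0.83 and −1.03 on P. gingivalis arrays, with full overlap (0.14 ± 0.15, SE). Cdkn2c, which encodes p18, stood at 0.02 ± 0.08 and Cdkn2d, which encodes p19INK4d, at −0.02 ± 0.07 (SE).

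Genes of pathways linked to the members were taken from 7 lists. Counts at an unadjusted p under 0.05 stand beside 10.9% of all genes tested at that threshold. Of 15 tested regulators of CDK phosphorylation and binding 7 were higher and 8 lower (median −0.0048), and an unadjusted p under 0.05 was reached by 1 higher and 2 lower genes. Wee1, the kinase that holds CDK1 inactive and a known target of the circadian clock, was at −1.62, −1.37, −1.46 and −1.37 on control and at −0.97, −0.85, −1.04 and −0.97 on P. gingivalis arrays. All 4 P. gingivalis arrays lay above all controls (0.50 ± 0.08, SE; limma adjusted p = 0.309), and the difference was −0.0086 under the groups of the value table. Under normexp background correction it was 0.37, with a limma adjusted p of 0.0478, past the threshold. The other 2 were Cdk5rap1 (−0.24, groups without overlap), an enzyme of tRNA modification first found as a CDK5 activator partner, and Cdc25b (−0.39), a phosphatase that opposes Wee1. Cdc25b was well above background on 4 control and 2 P. gingivalis arrays and was higher under normexp background correction (0.11). Its controls alone met the filter of 4 arrays, which favours lower values, so it adds no support to the count of lower genes.

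The core clock genes, with which Wee1 is often grouped, gave 9 higher and 9 lower of 18 tested (median 0.01). Nr1d1, a repressor of the clock, stood at −0.58 with groups that did not overlap, and Nfil3, an opposing regulator of clock output, at 0.50. Under normexp background correction Nr1d1 had a limma adjusted p of 0.0314, at −0.55. Under the groups of the value table Nr1d1 stood at −0.0047 and Nfil3 at 0.16.

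Of 24 proliferation genes 17 were tested, 5 higher and 12 lower with a median of −0.18. Under normexp background correction, whose offset shifts the dim genes among them, 10 were higher and the median was 0.04. Not well above background on enough arrays were Top2a, Aurkb, Bub1, Bub1b, Kif11, Nusap1 and Cenpf. Mki67, the Ki-67 antigen of cycling cells, was at −3.77, −3.73, −4.02 and −3.55 on control and at −4.27, −4.03, −5.29 and −4.77 on P. gingivalis arrays. The groups did not overlap, with control 3 and P. gingivalis 2 nearly level, and only 2 of the P. gingivalis arrays were well above background (−0.82 ± 0.26, SE; limma adjusted p = 0.357). Mki67 stood at 0.02 under normexp background correction. Plk1 (−0.45) was likewise well above background on 4 control but only 2 P. gingivalis arrays. For Mki67 and Plk1 the controls alone met the filter of 4 arrays, which favours lower values, so neither adds to the count of lower genes as support. The replicative helicase genes Mcm5 (−0.40, groups without overlap, 0.05 under normexp) and Mcm7 (−0.18, −0.16 under normexp) completed the 3 with an unadjusted p under 0.05.

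The RB and E2F family, through which CDK4, CDK6 and CDK2 act on transcription, gave 8 higher and 5 lower of 13 tested (median 0.03). E2f8, a repressive E2F, was the 1 with an unadjusted p under 0.05 (−0.76 ± 0.26, SE; limma adjusted p = 0.375), and it stood at −0.07 under normexp. Genes that degrade cyclins and inhibitors gave 7 higher and 8 lower of 15 (median −0.02), and partners of P-TEFb and the Mediator kinase 5 and 5 of 10 (median 0.0048), with none at an unadjusted p under 0.05 in either list. Of 18 genes of p53 and its targets 7 were higher and 11 lower (median −0.03). Plk2 (−0.27, groups without overlap), Trp53 itself (−0.26), Bbc3 (−0.25) and Tnfrsf10b (−0.24) had an unadjusted p under 0.05, and Plk2 stood at 0.02 under normexp.

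In whole muscle, fewer cells of a type and less RNA per cell cannot be told apart. All 12 fibre markers were tested, 11 of them higher but none at an unadjusted p under 0.05, which 10.9% of all genes tested reached. Their summed signal (in multiples of the array's 75th percentile) was 6823 to 7532 on control and 7539 to 7891 on P. gingivalis arrays. All 8 fibroblast markers were higher, 5 at an unadjusted p under 0.05, with sums of 261 to 352 against 339 to 410. Of 9 macrophage markers 8 were higher (23.6 to 30.7 against 27.9 to 38.4), and of 8 endothelial markers 7 were lower (25.5 to 30.9 against 23.8 to 28.4), with 2 at an unadjusted p under 0.05 in each list. Of 7 tested satellite cell markers 2 were higher and 5 lower (9.31 to 9.68 against 8.71 to 9.71), and Myf5 was not tested. Of 6 tested neutrophil markers 1 was higher and 5 lower (1.66 to 4.69 against 1.94 to 2.08). At an unadjusted p under 0.05 there were 1 higher and 2 lower. S100a8 and S100a9, the calprotectin genes of neutrophils, stood at −3.42 and −2.93, the former the lowest of all genes tested (limma adjusted p = 0.329 for each). S100a9 was at 0.65, 0.67, −2.64 and 1.2 on control and at −2.88, −2.31, −2.74 and −3.92 on P. gingivalis arrays, so control 3 lay among the P. gingivalis values. Both were also lower with the value table's groups, at −1.64 and −1.06. Elane, neutrophil elastase, stood at 0.36 with groups that did not overlap, and Ngp, Ltf and Retnlg were not tested. T and B cell markers gave 3 and 3 of 6 (2.75 to 3.0 against 2.55 to 2.97), and red blood cell precursor markers 1 higher and 4 lower of 5 (134 to 220 against 150 to 230). Adipocyte markers gave 4 higher and 2 lower of 6 (87.4 to 100.7 against 72.8 to 88.1), and Schwann cell markers 2 higher and 4 lower of 6 (9.40 to 11.7 against 9.55 to 13.0). In each of these 2 lists 1 lower marker had an unadjusted p under 0.05. None did among satellite cell, T and B cell and red blood cell precursor markers. Higher under the groups of the value table were 3 of 12 fibre, 5 of 8 fibroblast, 4 of 9 macrophage and 8 of 8 endothelial markers. Their part in the values of the cyclins and CDKs was not tested.

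**Figure D4:**
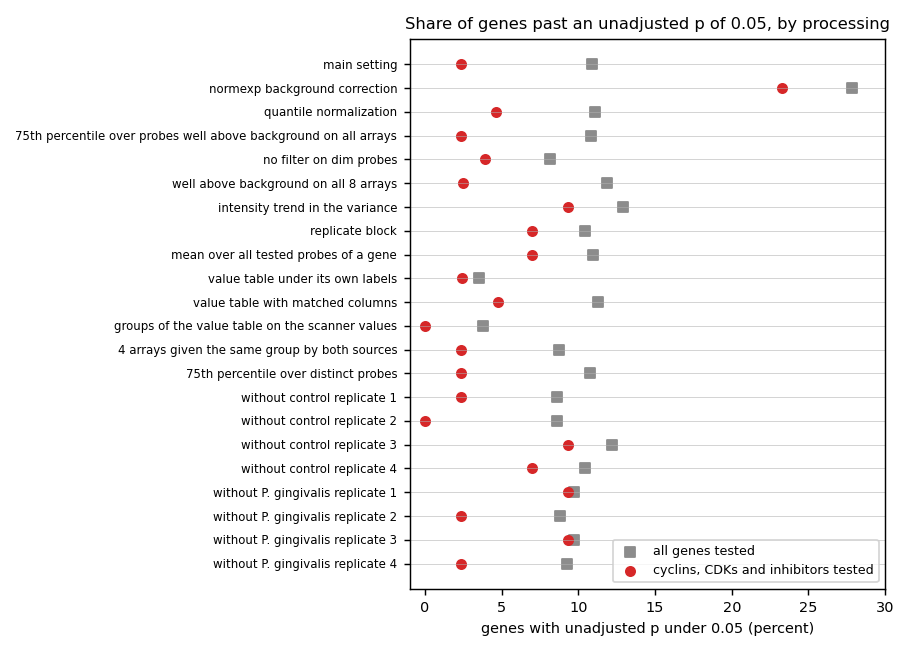
Share of genes with an unadjusted limma p under 0.05 (percent, horizontal axis) among all genes tested (grey squares) and among the tested members (red circles), for the main processing and each alternative. The red circle lies left of the grey square in every row, from 0% to 23.3% for members and from 3.53% to 27.8% for all genes.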

How the data were processed

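Total RNA of 8 muscles was labelled with Cy3 and read on Agilent arrays with 1 dye. Spot intensity was deposited as Feature Extraction output (version 11.0.1.1 per the file headers, 11.1 per the submitters' processing notes), background-subtracted and detrended within each array but not scaled between arrays. The authors also deposited a log2 value table of 24764 probes with column medians of 7.36 to 7.37, whose scaling is not given in the sources used here. It served as an alternative only.

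Of the processed intensity, log2 was taken and each array's 75th percentile over its 59305 non-control spots subtracted. Outlier spots were left out. The 31649 probes that were well above background on 4 or more of the 8 arrays entered a limma fit without covariates (version 3.58.1, R 4.3.3), and p-values were adjusted over them by Benjamini-Hochberg with a threshold of 0.05. The script was tested on simulated data. Each gene stands for the brightest of its tested probes on average, under the name in the file, and probe positions are on mm9. Exact permutation tests are two-sided over 70 assignments.

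Members and lists were chosen with earlier results of these data known. Described with array values were members with an unadjusted p under 0.05 or groups without overlap, filled to 3 per role by lowest p, and from each of 7 pathway lists up to 4 genes with an unadjusted p under 0.05. Markers of 10 cell types were summed. The replicate numbers coincide with the position on the slide, and arrays of the same number did not deviate together (correlations of 0.0628, 0.0333, 0.0071 and 0.0085). Alternatives were the background correction (normexp with an offset of 50), scaling, filter, variance trend, block, choice of probe, value table, group labels and leaving out each array. The number of arrays limits the precision. Figures were drawn with matplotlib 3.10.9.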

Additional observations from a re-analysis of the deposited data

Results flagged for a closer look

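Over the 43 tested members and both groups, 86 sets of 4 arrays were examined for an array whose gap to the nearest of the others, divided by the range, exceeded Dixon's 95% critical value, of which chance gives about 4.3. There were 3. Control 2 was high for Ccnh, at 2.86 against 2.76 to 2.77 on the other controls. Control 2 was also high for Ccng2, at 1.72 against 1.34 to 1.38. P. gingivalis 1 was low for Ccng2, at 1.23 against 1.57 to 1.59 on the other P. gingivalis arrays.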

How the results depend on the processing

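The number of members with an adjusted p under 0.05 stayed at 0 under all 21 alternatives, among them 1 chosen after seeing the data, the 75th percentile over distinct probes, under which Ccnd1 and Cdk12 turned sign, so that 27 of 43 members were lower. The number with an unadjusted p under 0.05 was 1, and became 10 under normexp background correction, 4 with an intensity trend in the variance, 3 with the mean over all tested probes of a gene, 2 under quantile normalization, 2 without a filter, 2 in the matched columns of the value table and 0 under the groups of the value table on the scanner values. With the replicate block it was 3 (Cdk15, Cdk18 and Cdk6). As the numbers do not pair the arrays, and only 1 of 8 arrays correlated best with its own number, the block was not used further. Leaving out 1 array gave 0 to 4 (8.60% to 12.2% of all genes), with 0 without control 2. Cdk15 was among them only without control 4, P. gingivalis 1 or P. gingivalis 3. The number of members whose groups do not overlap was 0 (6.79% of all genes tested). It became 2 under normexp (17.0%) and 2 in the matched columns (6.79%). It was 1 with the percentile over probes well above background on all arrays (6.99%), 1 without a filter (5.41%) and 1 with the mean over probes (6.37%). The 1 without a filter was Cdk1, which had no array well above background. With fewer arrays groups overlap less by construction. The number was 22 on the 4 arrays whose group both sources share (where 43.8% of all genes did not overlap). Leaving out 1 array it was 1 to 4 (9.86% to 13.0% of all genes). The median over members was −0.06, and became −0.025 with the mean over probes, 0.0170 in the value table under its own labels and 0.0044 under its groups on the scanner values. Leaving out 1 array gave −0.091 to −0.040.

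Of 497 values of the 24 members described by array, 457 kept their sign and 40, of 16 members, changed it. Cdk15, Ccne1, Cdk4, Cdk7, Cdk8, Cdk14, Cdk18 and Cdkn2b kept it throughout. Under normexp Ccna2 stood at 0.093, Cdk6 at 0.067 and Cdk2 at 0.12, and with the mean over probes Cdkn1b stood at 0.061. In the value table under its own labels Ccnd2 stood at 0.083, Ccnh at −0.0036, Ccnl2 at 0.018, Ccny at −0.14, Ccng1 at 0.079, Cdk6 at 0.077, Cdk2 at 0.0087, Cdk13 at 0.016, Cdkn1c at 0.083 and Cdkn1a at −0.34. Ccnl1 and Ccni also turned sign there, but these changes are not counted among the 497 values. With matched columns Cdkn2d stood at 0.0024. Under the groups of the value table on the scanner values Ccnd2 stood at 0.022, Ccnl1 at 0.10, Ccnh at −0.0064, Ccnl2 at 0.044, Ccny at −0.12, Ccni at 0.073, Ccng1 at 0.062, Cdk6 at 0.19, Cdk2 at 0.035, Cdk13 at 0.0044, Cdkn1c at 0.080 and Cdkn1a at −0.35. On the 4 arrays whose group both sources share Cdkn1c stood at 0.062 and Cdkn1a at −0.30. Leaving out 1 array gave −0.23 to 0.29 for Cdkn1a, −0.27 to 0.014 for Cdk2, −0.072 to 0.031 for Cdkn1c, −0.023 to 0.082 for Cdkn2c and −0.068 to 0.0060 for Cdkn2d. The cause of these changes was not tested.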
